A study of Mus musculus with 4 samples.

Results

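Nr2f1, Nr2f2, Tcf21, Maf and Lhx2 are 5 transcription factors that were grouped by name as factors of the interstitial lineage of the fetal mouse ovary. They are 5 of the 19321 genes measured in single cells of XX gonads from C57BL/6 embryos on 4 successive days, E11.5 to E14.5, around the start of meiosis. Gonads were dissociated with TrypLE and each stage gave 1 library of the 10x Chromium 3' system, so stage and library cannot be told apart, and how many embryos each library held is not stated in the labels. The labels name no mutant or treated group.

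The interstitium, or stroma, of the gonad lies between the germ cells with their supporting cells and the vessels, and in the ovary it later contributes theca and stromal cells. Nr2f1 and Nr2f2 encode the COUP-TF orphan nuclear receptors, which bind DNA as dimers at paired nuclear receptor core sites. Nr2f2 is widely used as a marker of mesenchyme and stroma, and it is also known from venous endothelium. Tcf21 encodes a basic helix-loop-helix factor of kidney, lung, heart and gonad mesenchyme that binds E-boxes. Maf encodes a large Maf factor with a basic leucine zipper, known from lens, lymphocytes and macrophages as well as from gonadal interstitium. Lhx2 encodes a LIM homeodomain factor of brain, eye and limb.

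On the mm10 (GRCm38) genome Nr2f1 spans chr13:78188973-78199757, Nr2f2 chr7:70351944-70366735, Tcf21 chr10:22817281-22820174 and Maf chr8:115682942-115707794, each on the minus strand, and Lhx2 spans chr2:38339281-38369733 on the plus strand, all in the GENCODE annotation. Each of the first 4 overlaps 1 gene of the opposite strand and Lhx2 overlaps 2. Whether the counting used strand is not given in the sources used here, so reads of such pairs could have been assigned to either gene. Sequence just upstream of the start site is shown for 3 members. Nr2f2 and Tcf21 are the pair of members whose levels were most alike over cell classes and stages, and Lhx2 is the member that did not follow them. The sequences are from RefSeq (GRCm38), 5' to 3' on the strand of the gene, and stop before the first annotated transcribed base. Capitals mark every match, on either strand, to AGGTCA, a nuclear receptor core site, to CANNTG, the E-box, to TAATTA, a homeodomain core, to GGGCGG, which SP proteins are known to bind, or to TATAAA, a core promoter element.
Nr2f2, chr7:70366747-70366996, minus strand: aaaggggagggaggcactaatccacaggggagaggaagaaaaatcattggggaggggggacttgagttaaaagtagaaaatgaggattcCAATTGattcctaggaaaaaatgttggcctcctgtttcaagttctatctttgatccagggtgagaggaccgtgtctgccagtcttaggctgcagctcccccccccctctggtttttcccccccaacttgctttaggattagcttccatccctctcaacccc
Tcf21, chr10:22820175-22820393, minus strand: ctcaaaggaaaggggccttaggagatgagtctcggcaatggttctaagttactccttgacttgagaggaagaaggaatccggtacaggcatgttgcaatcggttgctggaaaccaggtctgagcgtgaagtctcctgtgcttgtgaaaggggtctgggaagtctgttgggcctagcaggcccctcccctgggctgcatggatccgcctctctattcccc
Lhx2, chr2:38339031-38339280, plus strand: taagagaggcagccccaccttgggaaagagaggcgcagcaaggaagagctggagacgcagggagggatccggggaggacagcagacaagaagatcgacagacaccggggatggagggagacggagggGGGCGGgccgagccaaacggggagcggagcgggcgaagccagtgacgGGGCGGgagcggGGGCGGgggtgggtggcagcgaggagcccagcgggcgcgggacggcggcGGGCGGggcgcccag

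The Nr2f2 window of 250 bases held 1 E-box and no other match, and an E-box is found in 66.2% of the 32851 promoter windows of that length. The Tcf21 window of 219 bases held none of the 5 motifs. The Lhx2 window held 4 matches to GGGCGG, a motif found in 32.7% of windows of 250 bases, and its GC content was 72.8% against a median of 52.4% over all windows. AGGTCA occurred in 14% of windows of 250 bases, TAATTA in 4.84% and TATAAA in 12.4%. These matches describe letters in the windows and are no evidence of binding.

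After 94 to 113 doublet calls and at most 3 cells over 20% mitochondrial UMIs per library were left out, 4693 to 4800 cells were kept in each, with median depths of 11361 to 14258 UMIs (unique molecular identifiers, each counting 1 captured RNA molecule) per cell. The libraries shared 175 cell barcodes. Cells were classed by a few marker genes, where a gene counted as present with 1 UMI or more. Interstitial cells had at least 2 of Col1a1, Acta2 and Mfap4, and numbered 415, 380, 951 and 766 from E11.5 to E14.5. Surface epithelium cells had Upk3b with Krt19 or Krt7 (751, 833, 752 and 734 cells), supporting cells had at least 3 of Fst, Wnt4, Wnt6, Irx3 and Runx1 (2217, 2377, 2017 and 1121), and endothelial cells had Pecam1 with Cdh5 (144, 197, 132 and 69). A cell that met several rules was counted in each, which applied to 83, 114, 148 and 246 of the interstitial cells. Germ cells (at least 3 of Dazl, Ddx4, Dppa5a, Mael, Pou5f1 and Dppa3), erythroid cells (by a rule of the same kind) and immune cells (at least 2 of Ptprc, Csf1r, C1qb, Tyrobp and Lyz2) serve as a background.

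The class names were checked on genes that the rules do not use. Of the 5 interstitial check genes Pdgfra, Dcn, Col3a1, Lum and Col1a2, 4 were highest in the interstitial class at E12.5, where Dcn was not, and all 5 in the other libraries. All 6 endothelial check genes were highest in endothelial cells in each library, as were 4 or 5 of the 5 for supporting cells and for surface epithelium. Krt8, a check gene of surface epithelium, had 64.2 and 85.9 CPM there at E11.5 and E12.5, against 86.7 and 103.8 CPM in supporting cells. Msln counted as highest in surface epithelium at these stages with only 0.0789 and 0.0777 CPM. Foxl2, a transcription factor of granulosa cells, was nearly absent even from supporting cells, with 0.121, 0.124, 0.265 and 0.136 CPM. Its count among the supporting check genes rests on these very low levels, and the reason for them was not tested. The 6 germ cell markers summed to 19.7, 83.3, 73.9 and 380 CPM in interstitial cells, and 0, 4, 8 and 83 interstitial cells also met the germ cell rule. The part of those germ cell UMIs in the stage results below was not tested, apart from the values given without these cells.

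Nr2f2 was higher in interstitial cells than in the other 3 classes at every stage. Levels are the summed UMIs of each class and library, given as CPM (counts per 1e+06 UMIs of that sum), with exact Poisson 95% intervals. These intervals cover counting error only, since cells of 1 library are not replicates. In interstitial cells Nr2f2 stood at 298 (284 to 312), 294 (281 to 309), 343 (331 to 354) and 242 CPM (233 to 252) from E11.5 to E14.5. In surface epithelium it stood at 121, 123, 124 and 89.3 CPM. The interstitial level was above these values in all 4 libraries, with no overlap of intervals.

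Endothelial cells, which in veins are known to use Nr2f2, had 57.7, 119.9, 89.6 and 98.4 CPM of Nr2f2. Supporting cells had 59.1, 40.9, 43.8 and 54.3 CPM. The order below the interstitial class was surface epithelium, then supporting and endothelial cells with overlapping intervals, at E11.5. At E12.5 and E14.5 the intervals of surface epithelium and endothelial cells overlapped and supporting cells were lowest. Germ cells carried 4.37 to 7.89 CPM of Nr2f2, below the intervals of all 4 classes.

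Nr2f1, the close relative of Nr2f2, was also highest in interstitial cells, and its level was lower at each later stage. It stood at 86.8 (79.4 to 94.8), 49.4 (43.9 to 55.4), 29.7 (26.5 to 33.2) and 14.1 CPM (11.9 to 16.7). Surface epithelium had 38.2, 25.7, 15.3 and 5.55 CPM and supporting cells had 36.3, 9.49, 7.41 and 4.62 CPM, so that all 3 classes were lowest at E14.5. Germ cells had 1.81, 0.763, 2.40 and 5.13 CPM. At E14.5 the germ cell interval (4.46 to 5.87) overlapped those of surface epithelium (4.12 to 7.32) and supporting cells (3.59 to 5.86). Neither class was thus above the germ cell background at that stage. Endothelial cells had 3.75, 6.84, 12.4 and 11.02 CPM, from only 10, 26, 32 and 14 UMIs. At E14.5 the endothelial interval (6.03 to 18.5) overlapped the interstitial one. In the endothelial cells that met no other of the 4 rules the E13.5 level was 1.44 CPM (0.174 to 5.20), from 2 UMIs.

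Tcf21 had, of the 5 members, the largest ratio of interstitial to supporting cells in each library. Its interstitial levels were 100.4 (92.3 to 109), 76.8 (69.9 to 84.2), 157 (150 to 165) and 49.3 CPM (45.0 to 53.8). Supporting cells had 3.50, 2.70, 2.35 and 5.64 CPM, and surface epithelium lay between both with 47.3, 32.3, 46.1 and 15.1 CPM. The interstitial level was highest at E13.5 and lowest at E14.5, and no interval overlapped that of the next stage. Supporting cells that met no other of the 4 rules had 2.26, 1.18, 0.829 and 0.469 CPM, from 70, 33, 17 and 4 UMIs. Endothelial Tcf21 came from 2, 2, 13 and 7 UMIs, and germ cells had 0.508 to 1.23 CPM.

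Maf was highest in interstitial cells among the 4 classes, with 96.9 (88.9 to 105), 118 (109 to 127), 168 (160 to 176) and 135 CPM (128 to 143). Surface epithelium had 18.9, 27.5, 51.4 and 39.7 CPM, supporting cells had 31.5, 35.1, 57.0 and 52.1 CPM, and endothelial cells had 10.1, 36.8, 40.3 and 40.9 CPM. In each of the 4 classes the E11.5 level was the lowest. Immune cells, only 20 to 48 per library, were also rich in Maf, with 183 (158 to 211), 138 (102 to 181), 230 (191 to 275) and 126 CPM (102 to 154). The immune and interstitial intervals were apart at E11.5 and E13.5 and overlapped at E12.5 and E14.5. At most 3 interstitial cells per library met the immune rule.

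Lhx2 did not follow the group. It was represented by 1, 1, 8 and 18 UMIs over all interstitial cells, or 0.176, 0.170, 0.779 and 1.81 CPM. Surface epithelium had 1.42, 1.24, 1.92 and 1.22 CPM, supporting cells had 0.543, 0.620, 0.492 and 1.36 CPM, and endothelial cells had 0, 1, 3 and 0 UMIs. The counts of 0 in endothelial cells have exact Poisson upper limits of 1.38 CPM in the earliest and 2.90 CPM in the latest library (a floor of 3 UMIs is 1.12 and 2.36 CPM). The data go against the label for this gene, since its measured level was under 2 CPM in each of the 4 classes.

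Germ cells were the class with most Lhx2 at the later stages, with 0.566, 0.763, 5.27 (4.30 to 6.39) and 8.09 CPM (7.24 to 9.01). The germ cell level was 6.77 and 4.48 times the interstitial one in the last pair of libraries, with log2 intervals of 1.73 to 4.01 and 1.48 to 2.94. At E11.5 and E12.5 these intervals reached below 0. Without the interstitial cells that also met the germ cell rule, interstitial Lhx2 at E14.5 was 0.958 CPM.

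**Figure D1:**
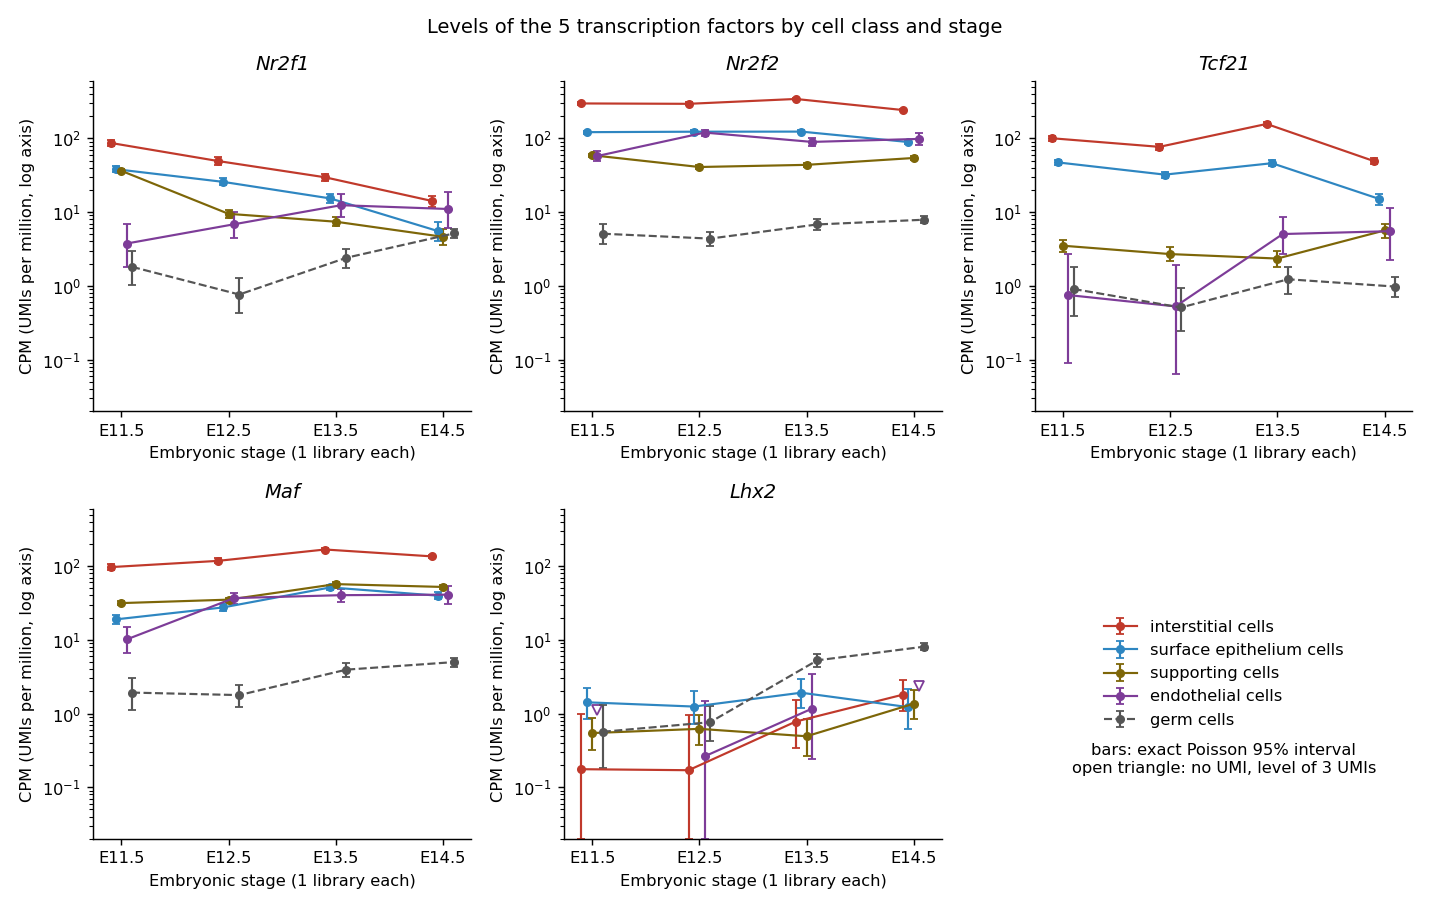
Level of each factor in CPM (log axis) by stage in interstitial, surface epithelium, supporting, endothelial and germ cells, 1 library per stage, with exact Poisson 95% intervals that end at the axis where they reach below it. Interstitial cells lie on top for Nr2f2, Tcf21 and Maf at all 4 stages, while Lhx2 is highest in germ cells at E13.5 and E14.5 (5.27 and 8.09 CPM).

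With 1 library per stage no test over samples is possible, so differences between the sums of 2 classes, or of 2 stages, were called by a rule of size. A gene was called higher where both sums together held at least 50 UMIs, the higher level was at least 10 CPM, the ratio was at least 2 and the Poisson intervals did not overlap. Against supporting cells, 16 of 20 pairs of member and library were called higher in interstitial cells, and none of the 16 belonged to Lhx2, which never reached 10 CPM. Over all genes that met the minimum counts the same call was made for 11%, 8.82%, 9.44% and 6.08% in stage order. The ratio for Tcf21 was 28.7, 28.5, 67.0 and 8.73 in stage order. Nr2f2 was 5.04, 7.20, 7.83 and 4.47 times higher, and in cells that met 1 rule only its log2 ratio at E14.5 was 3.25, against 2.16 with all cells. Maf had the narrowest span of ratios, 2.60 to 3.36, and Nr2f1 was 2.39, 5.21, 4.004 and 3.06 times higher. Within the cells that met 1 rule only, the Tcf21 ratios stood at log2 5.68, 6.10, 7.65 and 6.75, against 4.84, 4.83, 6.07 and 3.13 with all cells. The supporting sums of the cells that met 1 rule only held 70, 33, 17 and 4 Tcf21 UMIs. With doublet calls kept the Tcf21 ratio was log2 4.03 at E11.5 and 5.35 at E13.5, and with the class rules applied after thinning to 5000 UMIs it was 6.05 and 7.19.

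Against surface epithelium, 14 of 20 pairs were called higher, beside 5.97%, 4.64%, 6.07% and 5.42% of all genes from E11.5 to E14.5. Nr2f2, Tcf21 and Maf were called in all 4 libraries. Nr2f2 differed by a ratio of 2.39 to 2.77 and Tcf21 by 2.12 to 3.41. The ratio for Maf was 5.11, 4.28, 3.27 and 3.41 in stage order. Nr2f1 was called at E11.5 (2.27 times) and E14.5 (2.55 times), while its ratios of 1.92 and 1.94 at E12.5 and E13.5 fell short of 2 with intervals that did not overlap. At E14.5, 432 of the 734 surface epithelium cells met several of the rules. In cells that met 1 rule only, the log2 ratio at that stage was 3.28 for Tcf21 (1.71 with all cells), 2.18 for Nr2f2 (1.44), 2.46 for Maf (1.77) and 2.04 for Nr2f1 (1.35).

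Against endothelial cells, 15 of 20 pairs were called higher, beside 14.1%, 12%, 9.3% and 7.62% of all genes. Nr2f2 was 5.16, 2.46, 3.82 and 2.46 times higher and Maf 9.57, 3.20, 4.16 and 3.31 times. Tcf21 was higher by a log2 ratio of 7.06 (5.21 to 10.1) at E11.5 and 7.19 (5.33 to 10.2) at E12.5, where the endothelial sum held 2 UMIs each time. It was 4.96 at E13.5 and 3.16 at E14.5. For Nr2f1 the log2 ratio was 4.53, 2.85 and 1.26 at the first 3 stages, and at E14.5 it was 0.36 (-0.43 to 1.27), which was not called. The endothelial ratios at E13.5 were larger in cells that met 1 rule only, with log2 values of 4.08 for Maf (2.06 with all cells), 7.85 for Tcf21 and 4.34 for Nr2f1. In those cells Maf was also at 3.12 at E14.5 (1.73 with all cells), and Tcf21 was at 8.23 at E11.5. The endothelial sums behind these ratios held few UMIs. At E13.5 they held 16 for Maf, 1 for Tcf21 and 2 for Nr2f1. There were 11 for Maf at E14.5 and 1 for Tcf21 at E11.5. With doublet calls kept, Tcf21 was at 6.17 at E11.5 and 4.19 at E13.5 and Nr2f1 at 3.76 at E11.5. With the class rules applied after thinning, Tcf21 was at 6.36 at E13.5 and Maf at 2.29 at E12.5 (1.68 with all cells).

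**Figure D2:**
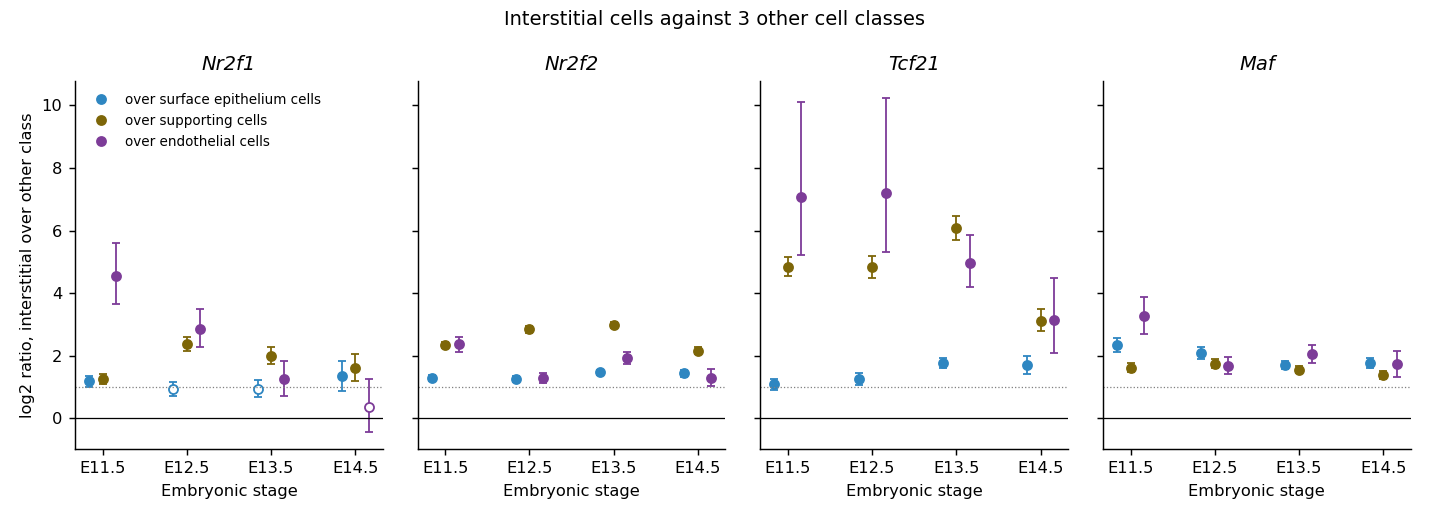
Log2 ratio of interstitial cells over surface epithelium, supporting and endothelial cells for 4 factors at each stage, with 95% intervals for counting error, filled where the rule of size was met and open where it was not, and a dotted line at a ratio of 2. Only Nr2f1 has open points (surface epithelium at E12.5 and E13.5, endothelial cells at E14.5), and Tcf21 over supporting cells is highest at E13.5 (6.07).

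The interstitial rule needs 2 of 3 genes, and the factors were next followed by the number of these genes seen. Every cell was thinned to 5000 UMIs, so that the number of rule genes was counted at 1 depth, and germ, erythroid and immune cells were left out. Col1a1 encodes a fibrillar collagen, Acta2 smooth muscle actin and Mfap4 a microfibril protein. With 0 of the 3 genes seen, Nr2f2 stood at 94.0, 73.9, 66.0 and 50.4 CPM from E11.5 to E14.5. With 1 gene it stood at 182, 203, 255 and 151 CPM, and with 2 at 427, 343, 401 and 307 CPM. In every library the level was higher with each step up to 2 genes. With all 3 genes it was 296, 282, 356 and 309 CPM, with intervals that overlapped those of 2 genes, and there were 25, 17, 216 and 252 such cells in stage order. Cells with 2 genes numbered 167, 115, 448 and 270. The class itself is set at full depth and is larger (415, 380, 951 and 766 cells), so cells of the class are also among those with 0 or 1 gene after thinning.

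As a ratio, Tcf21 showed the steepest step from 0 to 1 gene, from 14.9 to 104 CPM at E13.5 and from 3.29 to 29.3 CPM at E14.5. In CPM the step of Nr2f2 was larger at both stages. With 2 genes it was 109, 85.2, 182 and 52.6 CPM. Maf went from 34.2, 39.3, 65.2 and 38.8 CPM with 0 genes to 116, 162, 200 and 160 CPM with 2. Nr2f1 went from 34.6, 14.7, 8.92 and 3.62 CPM to 116, 59.1, 29.9 and 15.6 CPM. Cells with 1 rule gene after thinning lay between those with 0 and those with 2 for each of these 4 factors in all 4 libraries. For Nr2f1 at E14.5 that level was 6.02 CPM from 8 UMIs (2.60 to 11.9). This interval overlapped those of 0 genes (2.27 to 5.48) and of 2 genes (9.63 to 23.8). The measured Lhx2 level was at or under 1.48 CPM in every bin. With all 3 genes it had no UMI, and the upper limits were 29.5, 43.4, 3.42 and 2.93 CPM in stage order. Bins of so few cells therefore do not bound its level at 1.48 CPM.

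**Figure D3:**
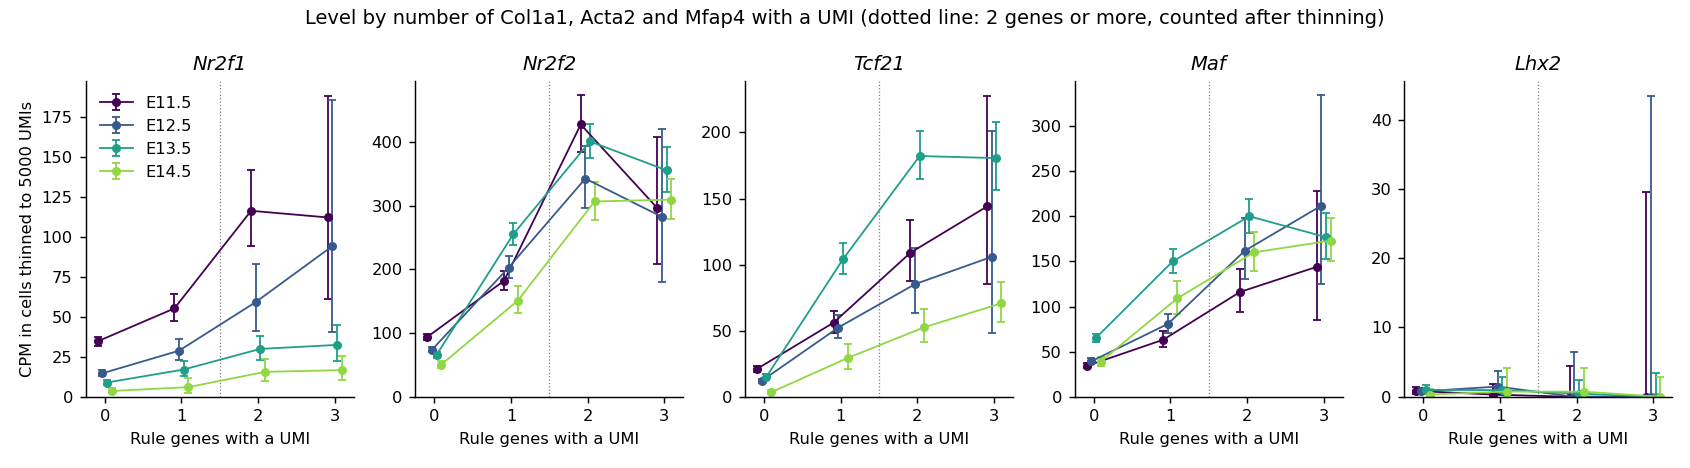
CPM of each factor in cells thinned to 5000 UMIs, by the number of Col1a1, Acta2 and Mfap4 with a UMI (0 to 3), 1 line per stage, with exact Poisson 95% intervals and a dotted line below 2 genes, counted after thinning and so not the border of the class. Nr2f1, Nr2f2, Tcf21 and Maf are higher with each step from 0 to 2 genes at all 4 stages. The Nr2f1 intervals at E14.5 overlap at both steps. Measured Lhx2 is at or under 1.48 CPM, and its counts of 0 with 3 genes have upper limits of up to 43.4 CPM.

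Over time, 2 of the 5 members were called between E11.5 and E14.5 in interstitial cells, both lower. Lower calls were made for 2.48% and higher calls for 4.87% of all genes in that comparison, whose median log2 change was -0.06. Nr2f1 fell 6.14-fold, a log2 change of -2.62 (-2.90 to -2.35). Tcf21 changed by -1.03 (-1.20 to -0.85) on the log2 scale, just past the limit of 2-fold. That call for Tcf21 was lost with doublet calls kept (-0.99), without cells of the germ cell rule (-0.86) and on a median-of-ratios scale (-0.96). Its interstitial path was not steady, since 76.8 CPM at E12.5 was followed by 157 at E13.5. Nr2f2, at -0.30 (-0.39 to -0.21), and Maf, at 0.48 (0.34 to 0.63), were not called.

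Nr2f1 was also called lower in the 2 other large classes. In surface epithelium it fell by 2.78 (log2; interval -3.23 to -2.36), where 1.96% of all genes were called lower and 6.45% higher. In supporting cells it fell by 2.98 (log2; interval -3.35 to -2.62), beside 3.5% of genes lower and 8.59% higher. Most of the supporting cell difference lay between E11.5 and E12.5, with 36.3 and then 9.49 CPM. Tcf21 fell by 1.65 on the log2 scale in surface epithelium. In the surface epithelium cells that met 1 rule only the log2 changes were -3.23 for Tcf21 and -3.48 for Nr2f1. Nr2f2 changed by -0.44 in surface epithelium and -0.12 in supporting cells, which was not called, and by -1.09 and -1.01 in the cells of these classes that met 1 rule only. Whether these changes differ between classes was not tested.

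Maf was called higher at E14.5 than at E11.5 in surface epithelium, with a log2 change of 1.07 (0.83 to 1.31), and in endothelial cells, with 2.02 (1.32 to 2.74). In endothelial cells 7.21% of all genes were called higher and 4.26% lower. The endothelial change rested on 27 UMIs at E11.5 and 52 at E14.5 and was 0.97 in cells that met 1 rule only, under 2-fold. In those cells the surface epithelium change was 0.78, also under 2-fold. Supporting cells had a Maf change of 0.73 (0.59 to 0.86), which was not called.

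The share of cells with a UMI was compared after thinning each cell to 5000 UMIs, with Clopper-Pearson 95% intervals, which cover counting error only. Nr2f2 was seen in 67.0% (62.2 to 71.5), 72.6%, 76.0% and 66.6% of interstitial cells. Without thinning it was seen in 89.9%, 91.6%, 91.2% and 87.0%, at median depths of 12323, 13734.5, 9471 and 11053 UMIs. In thinned germ cells, which should lack the gene, the share was 2.85%, 2.09%, 2.63% and 3.14%, and unthinned it was 6.95% to 10.7% at median depths of 15551 to 30885 UMIs. Surface epithelium had 43.4%, 41.2%, 38.3% and 29.6% and supporting cells 24.9%, 15.3%, 15.8% and 19.7% after thinning, so both were above the germ cell background at every stage.

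Tcf21 was seen in 35.7%, 28.7%, 50.4% and 21.9% of thinned interstitial cells, against 1.26%, 1.01%, 0.892% and 2.32% of supporting cells and 0 to 0.395% of germ cells. The germ cell count of 0 at E11.5 has a Clopper-Pearson upper limit of 1.30% (3 cells would be 1.07%), so the 1.26% of supporting cells at that stage lay within it. Maf was seen in 35.2%, 37.6%, 49.1% and 47.1% and Nr2f1 in 30.4%, 19.5%, 11.99% and 6.40% of interstitial cells. In germ cells the Maf share was at most 2.07% and the Nr2f1 share at most 2.48%. Without thinning the interstitial shares were 63.6%, 58.9%, 68.6% and 41.5% for Tcf21, 57.1%, 67.9%, 68.9% and 69.7% for Maf, and 51.6%, 41.1%, 23.0% and 15.8% for Nr2f1.

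Lhx2 was seen in 0.241%, 0.263%, 0.421% and 0.653% of thinned interstitial cells. In germ cells its share was 0.712%, 0.597%, 2.63% and 4.10%. The intervals of germ and interstitial cells overlapped at E11.5 and E12.5, and the germ cell share was higher with no overlap at E13.5 and E14.5.

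The number of factors with a UMI varied among thinned interstitial cells. Whether this went beyond the sampling of UMIs in each thinned cell was not tested. Of Nr2f2, Tcf21 and Maf, none was seen in 19.3%, 14.7%, 7.36% and 16.8% of thinned interstitial cells, and all 3 were seen in 9.88%, 8.42%, 18.3% and 7.70%. At E13.5, 46.3% of cells had 2 of the 3, against 36.8% to 37.3% at the other stages. The full class was used, so cells that also met other rules are included. Of the 766 cells at E14.5, 246 met several of the 4 class rules and 83 met the germ cell rule. These shares, and those for pairs of factors below, were not determined without such cells.

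After thinning, Tcf21 was seen about as often with as without Maf in the same cell. Among cells with a Maf UMI, 35.6%, 28.7%, 48.0% and 22.7% had Tcf21, and among cells without one 35.7%, 28.7%, 52.7% and 21.2% did. The intervals overlapped at each stage. Without thinning, where depth differs between cells, Tcf21 was seen in 69.2%, 60.5%, 68.9% and 43.6% of cells with Maf. In cells without Maf the unthinned shares were 56.2%, 55.7%, 67.9% and 36.6%, and these intervals overlapped too. In thinned cells Nr2f2 was seen in 75.7%, 81.7%, 78.3% and 69.6% of those with Tcf21. Among those without it the shares were 62.2%, 69.0%, 73.7% and 65.7%, with overlapping intervals at each stage. Without thinning they were 94.7%, 95.5%, 92.8% and 91.2% with Tcf21 and 81.5%, 85.9%, 87.6% and 83.9% without. Those unthinned intervals were apart at E11.5, E12.5 and E14.5, so whether the intervals overlap depends on the setting. The Nr2f2 share was higher with Tcf21 than without it at each stage in both settings, and the difference itself was not tested. After thinning, Nr2f2 was seen in 78.1%, 74.1%, 77.7% and 72.6% of cells with Maf and in 61.0%, 71.7%, 74.4% and 61.2% without. The intervals by Maf were apart at E11.5 and E14.5 and overlapped at E12.5 and E13.5, and without thinning they were apart at E14.5 only. Nr2f1 was seen in 34.9%, 20.7%, 12.3% and 7.65% of thinned cells with Nr2f2. Among those without it the shares were 21.2%, 16.3%, 10.96% and 3.91%, with intervals apart at E11.5 and overlapping later. Without thinning the Nr2f1 intervals were apart at E14.5 only.

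**Figure D4:**
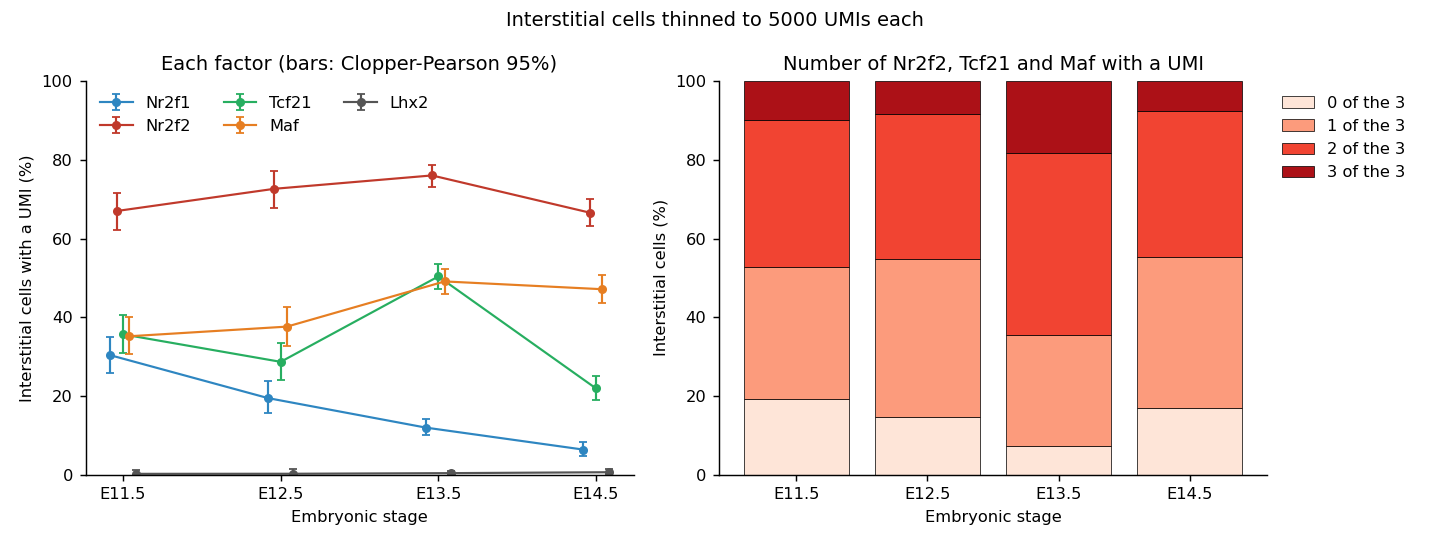
Left, percentage of interstitial cells with a UMI of each factor by stage after thinning to 5000 UMIs, with Clopper-Pearson 95% intervals; right, percentage of the same cells with 0 to 3 of Nr2f2, Tcf21 and Maf. Nr2f2 is seen in 66.6% to 76.0% of cells, Tcf21 peaks at E13.5 (50.4%), and 18.3% of E13.5 cells have all 3.

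Other transcription factors of mesenchyme, a list of 15, mostly lay on the side of the 4 factors. In interstitial against supporting cells 10 of 11 genes with enough counts were called higher at E11.5, then 9 of 11, 8 of 12 and 6 of 10, and none was called lower. The median log2 ratio of the list was 3.35, 2.26, 2.08 and 1.56, beside 0.12, 0.06, 0.01 and 0.01 over all genes with enough counts. Meis2, a TALE homeodomain factor, had 245, 214, 229 and 171 CPM in interstitial and 23.9, 23.7, 26.4 and 39.2 CPM in supporting cells. Hic1, a zinc finger factor of mesenchymal progenitors, had 67.3, 66.6, 124 and 78.3 CPM against 1.42, 1.89, 3.48 and 11.6. Prrx1, a homeodomain factor of limb and craniofacial mesenchyme, had 30.9, 41.4, 46.5 and 53.6 CPM against 1.33, 2.73, 3.22 and 6.25. Tcf4 was not called at any stage, and Gli1 and Foxf1 never had enough counts.

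**Figure D5:**
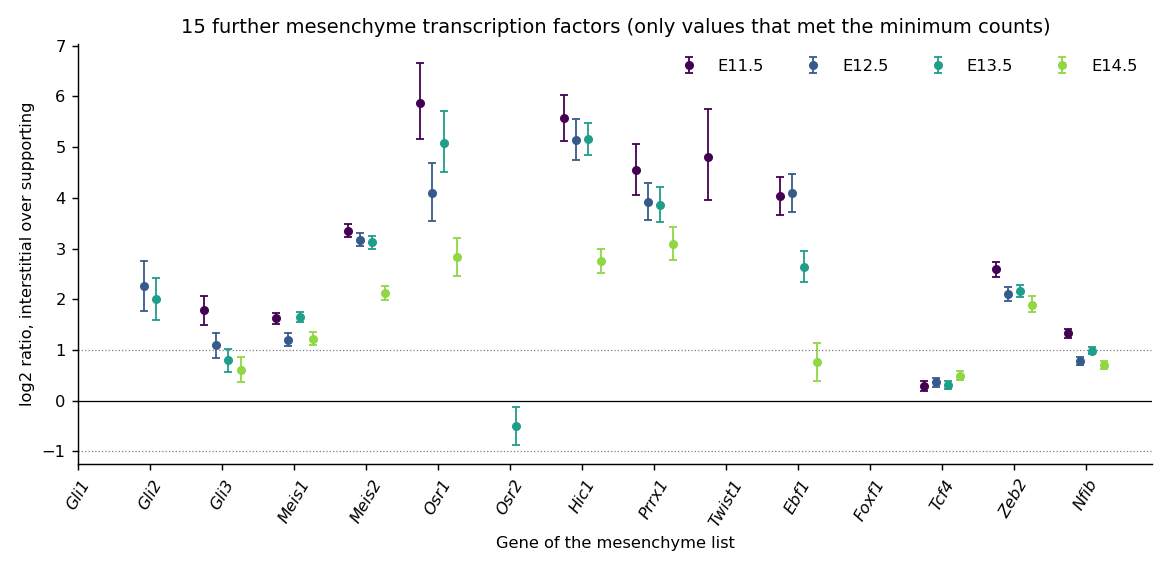
Log2 ratio of interstitial over supporting cells for 15 further transcription factors of mesenchyme at each stage, with 95% intervals for counting error, shown where the sums held at least 50 UMIs and 10 CPM in the higher class; dotted lines mark a ratio of 2 in either direction. Of the genes shown 10, 9, 8 and 6 were called higher in stage order and none lower.

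Relatives and cofactors of the members formed a list of 19 genes, of which 6 had enough counts at each stage, and 1, 0, 0 and 1 of them were called higher in interstitial cells, with a median log2 ratio of 0.03, 0.10, -0.16 and -0.12. Nr2f6, the remaining COUP-family receptor, had 42.9, 51.8, 55.9 and 34.8 CPM against 66.5, 52.5, 64.8 and 46.6 in supporting cells and was not called. Lhx9, a LIM factor of the gonadal primordium, had 213, 175, 136 and 119.6 CPM against 263, 278, 269 and 235 and was not called either. Ldb2, a cofactor of LIM proteins, was called at E11.5 (50.3 against 6.55 CPM). Zfpm2, the FOG2 partner of GATA factors that also binds COUP receptors, was called at E14.5 (23.4 against 10.6 CPM).

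Matrix and signalling genes of the interstitium set the scale for the class. Of 18, 13 were called higher than in supporting cells at each stage, of 15, 14, 14 and 15 with enough counts, and the median log2 ratio was 4.32, 2.82, 3.73 and 2.33. Pdgfra, the receptor that marks many mesenchymal cells, had 58.2, 60.1, 91.9 and 72.4 CPM against 8.82, 12.7, 13.4 and 16.4. Igf1, a growth factor, was the gene called lower, at E11.5 (19.5 against 78.8 CPM) and E12.5 (33.0 against 87.4 CPM). Lower calls were made for 9.07%, 8.13%, 9.6% and 6.22% of all genes.

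Transcription factors of the gonadal soma went the other way. Of 12, none was called higher in interstitial cells, and 5 of 9, 4 of 9, 3 of 9 and 3 of 8 were called lower. Nr5a1, the steroidogenic factor SF1, was called at every stage, with 28.1, 19.6, 20.2 and 16.1 CPM against 73.7, 64.0, 75.7 and 48.9. Runx1 was called as well and is included in the counts of genes called lower. It is a gene of the supporting rule, so its difference follows from the rule and is no finding. Wt1, the zinc finger factor of the urogenital ridge, was not called, with 437, 355, 396 and 303 CPM against 539, 457, 489 and 347.

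The genes most like each member were ranked by the Pearson correlation of log2(CPM + 5) over the 16 sums of class and stage, among 7732 genes. The sums of 1 library share depth and some cells, so these values are a description. Meis2 was closest to Nr2f2 (r = 0.95), followed by Fblim1 (0.94) and Unc5c (0.91). St8sia2 (0.97), Cacng4 (0.96) and Tnfaip8 (0.95) were closest to Tcf21. For Maf they were Tpcn1 (0.93), Copa (0.92) and Smarca2 (0.91), and for Nr2f1 Hs2st1 (0.90), Spats2 (0.85) and Car3 (0.84). Among the members, r was 0.87 for Nr2f2 with Tcf21, 0.73 for Nr2f1 with Tcf21 and 0.70 for Nr2f2 with Maf. The correlations of Lhx2 with the other 4 were between -0.08 and 0.29, at levels of 1.92 CPM or less.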

How the data were processed

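The deposited table holds natural log values: the authors scaled each cell to 10000 UMIs, added 1 and took ln. This reading rests on the values, since in each cell all of them (69792436 non-zero values, 100%) back-transform to integer multiples of the lowest one at a relative tolerance of 1e-06. The multiples served as UMI counts, which the plan had assumed to find. Per the submitters' processing notes, Cell Ranger 2.2.0 and mm10 were used. Counting settings are not given in the sources used here, and 0 columns were left without a sample. Here Python 3.11.15, numpy 2.4.6, scipy 1.17.1, pandas 2.3.3 and scanpy 1.11.5 were used. Scrublet in scanpy ran per library (expected rate 0.06, 30 components, seed 1) and called 1.96% to 2.30% of cells, which were removed. The rule of size was run on simulated counts drawn from the Poisson model that it assumes, with no spread between cells or libraries. That run therefore cannot show how the rule behaves under such spread. The members, lists and class rules were chosen with earlier results of these data known. Genes named are the members, the genes of the rules, check markers and lists, and the 3 genes most like each member by correlation. A few genes of the lists and rules are not reported here, and the counts of the lists leave them out. Alternatives covered class rules, doublets, germ cells, depth, thinning, scale and thresholds.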

Additional observations from a re-analysis of the deposited data

Results flagged for a closer look

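A few changes from E11.5 to E14.5 had the opposite sign to that in interstitial cells, and none of these differences between classes was tested. Nr2f1, at -2.62 on the log2 scale in interstitial cells, was at 1.56 in endothelial cells (10 and 14 UMIs) and at 1.502 in germ cells (16 and 210 UMIs, 1.81 and 5.13 CPM). Nr2f2, at -0.30 in interstitial cells, was at 0.77 in endothelial cells (57.7 and 98.4 CPM) and at 0.63 in germ cells (5.09 and 7.89 CPM). Tcf21, at -1.03 in interstitial cells, was at 2.88 in endothelial cells, where it rested on 2 and 7 UMIs. In supporting cells Tcf21 was at 0.69 (3.50 and 5.64 CPM). That value turned to -2.27 in supporting cells that met 1 class rule only (2.26 and 0.469 CPM, from 70 and 4 UMIs). It was -0.04 with doublet calls kept. None of these opposite values met the rule of size.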

How the results depend on the processing

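The counts of members called higher in interstitial cells (16 against supporting cells, 14 against surface epithelium and 15 against endothelial cells) were within 1.5 times of these values under every alternative but 1. With a ratio of at least 4 in place of 2 they were 10, 2 and 9. The share of all genes called was not determined at that ratio or under the other alternatives, so these counts have no background beside them. The count of 2 members called between E11.5 and E14.5 became 1 with that ratio, with doublet calls kept, without cells of the germ cell rule and on the median-of-ratios scale, each time by the loss of Tcf21. No called log2 ratio changed sign. No paired analysis was possible because each stage has 1 library, and for the same reason no replicate could be left out. Levels moved beyond their counting intervals in 35 of 80 cases when cells that met several rules were left out and in 34 of 80 with the class rules applied after thinning to 5000 UMIs. The depth of 11361 to 14258 UMIs per cell limits Lhx2, which had at most 21 UMIs in a sum of the 4 classes, and the endothelial class, which had 69 cells at E14.5.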
